A study of Mus musculus with 6 samples.

Results

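The MCM helicase and replication licensing genes were followed in RNA from mouse haematopoietic stem cells (HSCs) with and without deletion of Maea. The group held the 6 subunits of the MCM2 to MCM7 ring (Mcm2, Mcm3, Mcm4, Mcm5, Mcm6 and Mcm7), the loading factors Cdc6 and Cdt1, the Cdt1 inhibitor Gmnn (geminin) and the activation factor Mcm10. Its members were the 10 rows of the deposited expression table, out of 46959, whose gene symbol equals one of these names. All 10 were among the 12955 genes that passed a filter of at least 1 CPM (read counts scaled to a common library total) in at least 3 libraries. Libraries were made from sorted bone marrow HSCs of 3 control and 3 MaeaCsf1r-Cre replicates, and the comparison asks how loss of Maea, which encodes a RING subunit of an E3 ubiquitin ligase complex, bears on transcripts of stem cells. Each library came from about 2000 cells pooled from 2 mice, and the mice were littermates that the series gives as 8 weeks old. MaeaCsf1r-Cre mice carried floxed Maea and a Cre driven by Csf1r regulatory sequence, which is active in monocytes and macrophages, so that the deletion was not restricted to HSCs. The labels call the other group only control, and which of the floxed littermate genotypes those mice had is not given in the sources used here. HSCs were sorted as lineage-negative Sca-1+ c-Kit+ cells that were CD150+ and CD48-.

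Before a cell copies its DNA, each origin of replication must be licensed. In late mitosis and G1 the origin recognition complex, CDC6 and CDT1 load MCM2 to MCM7 rings onto DNA, where they stay inactive. At the start of S phase, CDC7 and cyclin-dependent kinases, with CDC45, the GINS complex and MCM10, turn the rings into moving helicases that unwind the template. Geminin, present in S, G2 and M, binds CDT1 and so prevents another round of loading within the same cycle. Genes of this group are textbook targets of the E2F transcription factors, which drive transcription at the passage from G1 into S. Most HSCs of adult marrow are quiescent and outside the cycle.

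Promoter sequences show what several members share apart from their levels. RefSeq windows on GRCm38.p6, from 250 bases before to 50 bases after an annotated transcript start, were found for 8 of the 10 members, with 2 starts for Mcm7, which gave 9 windows. Mcm4 and Gmnn had no entry. Both strands were searched for the E2F words TTTCCCGC, TTTCGCGC, TTTGCCGC and TTTGGCGC, and 6 of the 8 genes held at least 1 of them, Mcm3, Mcm5, Mcm6, Mcm7, Cdc6 and Cdt1. Such a word stood in 2.26% of all 32851 promoter windows from RefSeq and in 3.97% of the 11662 windows of genes tested here. The windows of these 6 genes are shown 5′ to 3′ on the strand of the gene, since they carry that shared feature, with the E2F words in capitals. They were chr1:20820263-20820562 (minus strand) for Mcm3, chr8:75109259-75109558 (plus strand) for Mcm5, chr1:128359656-128359955 (minus strand) for Mcm6, chr5:138171834-138172133 (minus strand) for the upstream start of Mcm7, chr11:98907901-98908200 (plus strand) for Cdc6 and chr8:122567765-122568064 (plus strand) for Cdt1.
Mcm3: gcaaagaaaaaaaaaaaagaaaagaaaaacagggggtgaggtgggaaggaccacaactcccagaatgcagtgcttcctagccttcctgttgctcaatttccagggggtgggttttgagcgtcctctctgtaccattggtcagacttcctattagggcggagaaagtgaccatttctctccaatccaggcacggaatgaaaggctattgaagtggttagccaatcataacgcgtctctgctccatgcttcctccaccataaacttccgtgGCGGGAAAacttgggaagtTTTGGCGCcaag
Mcm5: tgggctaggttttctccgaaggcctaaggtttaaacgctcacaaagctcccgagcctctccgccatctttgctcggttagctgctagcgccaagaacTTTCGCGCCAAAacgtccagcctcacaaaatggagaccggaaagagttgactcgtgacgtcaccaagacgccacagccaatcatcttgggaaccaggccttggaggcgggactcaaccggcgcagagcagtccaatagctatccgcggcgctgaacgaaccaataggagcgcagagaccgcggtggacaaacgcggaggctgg
Mcm6: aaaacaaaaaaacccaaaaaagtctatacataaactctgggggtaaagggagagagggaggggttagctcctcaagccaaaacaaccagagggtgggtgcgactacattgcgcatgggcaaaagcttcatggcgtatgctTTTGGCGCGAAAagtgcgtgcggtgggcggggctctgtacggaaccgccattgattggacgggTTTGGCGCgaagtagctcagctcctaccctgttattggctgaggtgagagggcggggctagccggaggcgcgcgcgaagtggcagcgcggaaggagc
Mcm7: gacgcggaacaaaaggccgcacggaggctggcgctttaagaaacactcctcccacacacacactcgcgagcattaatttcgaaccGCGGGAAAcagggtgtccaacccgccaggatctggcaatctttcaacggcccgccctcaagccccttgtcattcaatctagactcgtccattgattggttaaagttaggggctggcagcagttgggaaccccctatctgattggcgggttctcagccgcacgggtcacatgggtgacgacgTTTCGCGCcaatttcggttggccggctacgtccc
Cdc6: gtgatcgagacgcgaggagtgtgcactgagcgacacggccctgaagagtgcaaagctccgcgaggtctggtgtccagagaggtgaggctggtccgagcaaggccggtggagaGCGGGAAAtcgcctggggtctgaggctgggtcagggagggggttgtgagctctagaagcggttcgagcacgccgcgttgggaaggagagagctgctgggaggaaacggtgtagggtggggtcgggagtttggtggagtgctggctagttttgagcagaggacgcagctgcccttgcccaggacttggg
Cdt1: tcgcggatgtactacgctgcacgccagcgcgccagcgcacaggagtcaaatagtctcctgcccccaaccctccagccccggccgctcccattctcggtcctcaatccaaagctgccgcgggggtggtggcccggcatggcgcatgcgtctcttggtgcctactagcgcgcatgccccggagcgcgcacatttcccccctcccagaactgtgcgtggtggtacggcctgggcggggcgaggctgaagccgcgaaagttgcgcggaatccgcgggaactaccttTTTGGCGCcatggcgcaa
In Mcm5 and Mcm6 a run of capitals longer than 8 bases is a pair of E2F words on opposite strands that share 4 bases, TTTCGCGC with GCGCCAAA in Mcm5 and TTTGGCGC with GCGCGAAA in Mcm6. The Mcm6 window held 3 words in all, Mcm3, Mcm5 and Mcm7 held 2 each, and Cdc6 and Cdt1 held 1 each. Words lay from 165 bases before the start in Mcm7 to base 39 after it in Mcm3. These starts are those of RefSeq. The windows of Cdc6 and Mcm7 lie wholly inside the genes as bounded in the GENCODE annotation, so sequence before those outer bounds was not searched. The windows of Mcm2 and Mcm10 and the downstream start of Mcm7 held none of these words in full. The Mcm10 window ends in TTTGGCG, the word TTTGGCGC without its last letter, and the next base lies outside the window. The CCAAT word, the letters bound by NF-Y, was found on either strand in 6 of the 8 genes, Mcm2, Mcm3, Mcm5, Mcm6, Mcm7 and Mcm10, against 37.4% of all windows. The word TTTGAA, the cell cycle homology region (CHR) of genes expressed in G2 and M, was found in 1 gene, Mcm2, against 17.9% of all windows. GC content of the 9 windows ran from 48.7 to 66.7%, with a median of 60.7% over windows of tested genes. A match of letters describes the sequence and does not show that a factor was bound there.

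**Figure D1:**
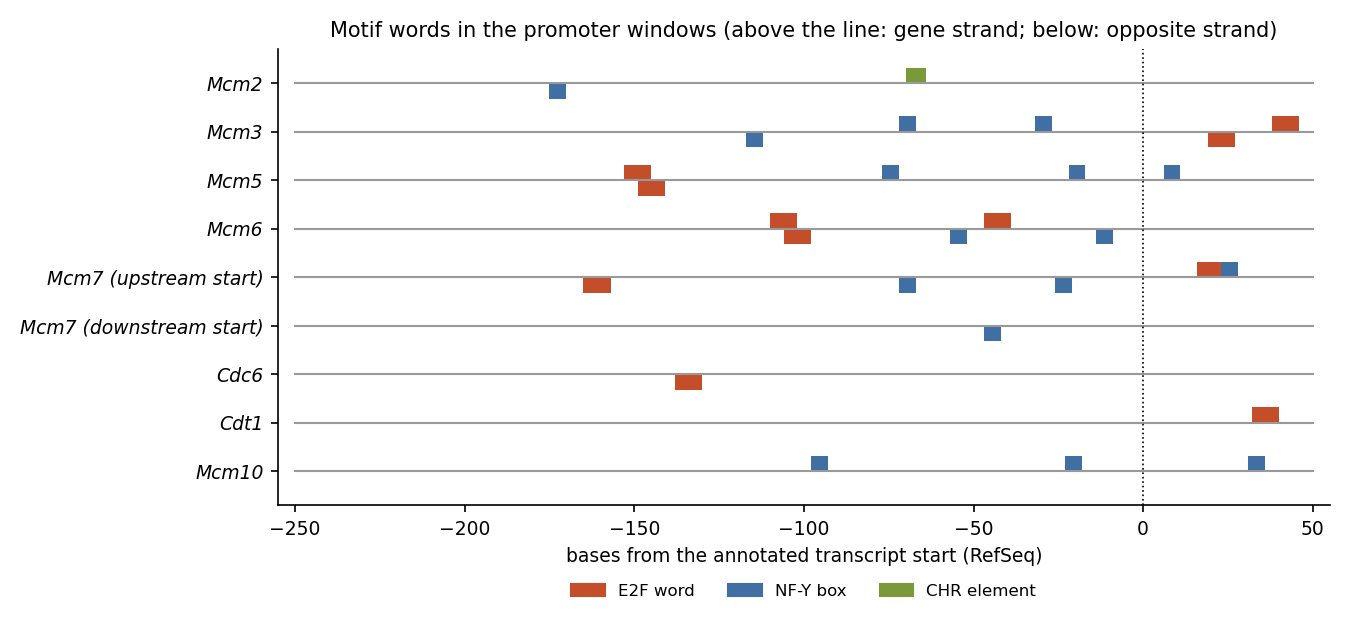
Motif words in 9 RefSeq promoter windows of 8 members, by distance in bases from the annotated transcript start, drawn above the line for words on the gene's own strand and below it for the opposite strand. E2F words stand in 6 windows, and the overlapping pairs begin 153 bases before the start in Mcm5 and 110 bases before it in Mcm6, while Mcm2, Mcm10 and the downstream start of Mcm7 have none.

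Some facts of the libraries bear on every value below. Depth behind the CPM scaling, read from the steps between low values, was 32968000 to 39614000 reads in control and 44159000 to 60937000 in MaeaCsf1r-Cre libraries, so that every MaeaCsf1r-Cre library was deeper than each control library, and depth and group cannot be told apart. Maea itself stood at 108.4, 115.9 and 122.98 CPM in control and 76.9, 88.6 and 101 CPM in MaeaCsf1r-Cre libraries, without overlap, and its log2 fold change was -0.39 (SE 0.13, limma adjusted p = 0.967). A value per gene does not separate the deleted exons from the rest of the transcript. All 10 HSC markers examined passed the filter, with summed levels of 993, 1557 and 1364 CPM in control and 680, 958 and 1259 CPM in MaeaCsf1r-Cre replicates 1 to 3. Of the 6 neutrophil markers none passed the filter, of 8 B cell markers 1 and of 6 T cell markers 2, and Ms4a1, Pax5, Igll1, Cd3g, Cd8a and Ly6g were listed at 0 in every library. The 10 macrophage markers summed to 17.4 to 65.5 CPM in control and 3.31 to 48.0 CPM in MaeaCsf1r-Cre libraries, with C1qa, C1qb and C1qc lower without overlap, and the 8 erythroid markers summed to 196 to 537 CPM in control and 244 to 507 CPM in MaeaCsf1r-Cre libraries. The 7 markers of multipotent and myeloid progenitors summed to 378 to 863 CPM in control and 392 to 474 CPM in MaeaCsf1r-Cre libraries.

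No licensing gene passed the test, and all 10 had a higher mean in MaeaCsf1r-Cre than in control HSCs. Log2 fold changes, on the log2(CPM + 1) scale, ran from 0.07 for Mcm3 to 0.26 for Cdt1, with standard errors of 0.12 to 0.26 and limma adjusted p-values of 0.967 to 0.971. Of the 10 members 0 also had an unadjusted p under 0.05, as 3.99% of all genes did, and every 95% interval included 0. Of all genes tested 0.00772% were called, that is 1 gene of 12955, BC023719, which is no member. The median log2 fold change of the members was 0.14 and that of all genes tested was -0.06, and 39.1% of all genes had a fold change above 0. Because a library is a bulk sample, more cells with a transcript and more of it per cell cannot be told apart. The p-values measure the spread between these libraries, each a pool of 2 mice by the study's description.

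Mcm2 to Mcm7 were abundant in every library. Mcm2 (chr6:88883474-88898780, minus strand, GRCm38), a subunit that also binds histones at the fork, stood at 397, 297 and 390.2 CPM in control replicates 1 to 3 and at 443, 354 and 367 CPM in MaeaCsf1r-Cre replicates 1 to 3. Group means of Mcm2 were 361 ± 55.7 and 388 ± 47.9 CPM (SD, n = 3 each). On the log2 scale the difference was 0.11 (SE 0.16) and had a 95% interval of -0.25 to 0.47. Control replicate 2 was the low library for Mcm2, and the other control libraries lay within the MaeaCsf1r-Cre range.

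Mcm3 (chr1:20802968-20820312, minus strand), which pairs with MCM5 in the ring, stood at 205, 187 and 233 CPM in control and 227, 206 and 222 CPM in MaeaCsf1r-Cre libraries. It had the smallest difference of the members, a log2 fold change of 0.07 (SE 0.12), and its highest value lay in a control library. For Mcm4 (chr16:15623897-15637400, minus strand), whose product with MCM6 and MCM7 forms a helicase core, the values were 269.6, 205 and 255 CPM in control and 293, 231 and 264 CPM in MaeaCsf1r-Cre libraries. The groups overlapped, but each MaeaCsf1r-Cre library lay above the control library of the same number. The log2 fold change of Mcm4 was 0.11 (SE 0.15). The start of Mcm4 lies 466 bases from that of Prkdc on the opposite strand, a DNA repair kinase, whose means were 38.0 CPM in control and 37.4 CPM in MaeaCsf1r-Cre libraries.

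Mcm5 (chr8:75109569-75128439, plus strand), at the gate through which DNA enters the ring, stood at 351, 289 and 360.2 CPM in control and 416, 322 and 338 CPM in MaeaCsf1r-Cre libraries, a log2 fold change of 0.10 (SE 0.15). Mcm6 (chr1:128331590-128359664, minus strand), which binds CDT1 during loading, was the most abundant member in CPM. Its levels were 697, 681 and 749 CPM in control and 842, 711 and 714 CPM in MaeaCsf1r-Cre libraries, and its log2 fold change was 0.09 (SE 0.12, 95% interval -0.20 to 0.37). For both genes MaeaCsf1r-Cre replicate 1 was the highest library and control replicate 2 the lowest. Of the other 4 libraries the controls were the higher pair for Mcm5 and stood on either side of the MaeaCsf1r-Cre libraries for Mcm6.

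Mcm7 (chr5:138164583-138172422, minus strand), a subunit of the helicase core, was the only member whose groups did not overlap. It stood at 363, 329 and 372 CPM in control and at 453, 382 and 382 CPM in MaeaCsf1r-Cre libraries, group means of 355 ± 22.6 and 406 ± 41.1 CPM (SD, n = 3 each). On the log2 scale they differed by 0.19 (SE 0.12), with a 95% interval of -0.09 to 0.47 and a limma adjusted p of 0.967. Of the 10 members 1 was higher and 0 lower without overlap. Of all genes 2.49% (323 genes) were higher and 6.06% (785 genes) lower without overlap. With 10 members, 1 such gene does not set the group apart from these shares. Mcm7 also kept apart after rescaling by median ratios and after quantile normalization. Its exons overlap those of Ap4m1 on the opposite strand by 321 bases and those of Cops6 by 64 bases, and the counting is not stated to use strand, so that reads of these stretches cannot be assigned with certainty. Ap4m1, an adaptor complex subunit, had means of 8.75 and 8.80 CPM, and Cops6, a COP9 signalosome subunit, 145 and 152 CPM in control and MaeaCsf1r-Cre libraries. The microRNA genes that Mcm7 hosts, Mir25, Mir93 and Mir106b, were listed at 0 in all libraries. Mir25 and Mir93 overlap exons of Mcm7 on the same strand by 84 and 88 bases. Whether these libraries capture RNAs so short was not examined, so a listing at 0 does not show absence.

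The factors around the ring were less abundant in CPM. Cdc6 (chr11:98907801-98923940, plus strand), the ATPase that joins the origin recognition complex before the ring is loaded, stood at 92.2, 55.3 and 53.0 CPM in control and 101, 58.7 and 74.2 CPM in MaeaCsf1r-Cre libraries. In each group the library numbered 1 was the highest, and the coefficient of variation was 32.9% in control and 27.5% in MaeaCsf1r-Cre libraries. The log2 fold change of Cdc6 was 0.23 (SE 0.26, 95% interval -0.38 to 0.84), the widest interval of the 10. The erythroid transcription factor Klf1 stood at 319, 119 and 94.0 CPM in control and 331, 122 and 201 CPM in MaeaCsf1r-Cre libraries, also highest in the library numbered 1 of each group. The part of erythroid transcripts in the Cdc6 values was not tested.

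Cdt1 (chr8:122568015-122573554, plus strand), the factor that brings the ring to the origin, stood at 27.9, 18.6 and 20.4 CPM in control and 26.2, 24.5 and 28.8 CPM in MaeaCsf1r-Cre libraries. It had the largest log2 fold change of the members, 0.26 (SE 0.19), but control replicate 1 lay above MaeaCsf1r-Cre replicates 1 and 2. Gmnn (chr13:24751845-24761923, minus strand), its inhibitor, stood at 60.3, 41.8 and 53.4 CPM in control and 74.5, 49.1 and 62.1 CPM in MaeaCsf1r-Cre libraries, a log2 fold change of 0.25 (SE 0.20). Gmnn was higher in every same-numbered pair although the groups overlapped.

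The balance of the loader and its inhibitor was taken as the log2 ratio of Cdt1 to Gmnn CPM within a library. This ratio was -1.11, -1.17 and -1.39 in control and -1.51, -1.01 and -1.11 in MaeaCsf1r-Cre replicates 1 to 3. The means were -1.22 ± 0.15 and -1.21 ± 0.26 (SD, n = 3 each), a difference of 0.02 with p = 0.9 in a two-sided exact permutation test over 20 labellings, whose smallest possible p is 0.1. All 3 control values lay within the range of the MaeaCsf1r-Cre values, and with 3 libraries a group the test cannot reach 0.05.

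Mcm10 (chr2:4989714-5012791, minus strand), needed to start the helicase at the passage into S phase, stood at 37.1, 29.4 and 28.1 CPM in control and 46.0, 26.6 and 35.1 CPM in MaeaCsf1r-Cre libraries. The log2 fold change was 0.16 (SE 0.22), and MaeaCsf1r-Cre libraries held both its highest and its lowest value. Counting error, which takes each read as independent, was small beside these spreads. The sampling of RNA molecules before sequencing is not part of it. Between 698 reads (Cdt1 in its lowest library) and 51322 reads (Mcm6 in its highest) lay behind a member's value, which gives a counting error of 0.66 to 3.79% at each member's lowest library, while coefficients of variation between control replicates were 5.04 to 32.9%.

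**Figure D2:**
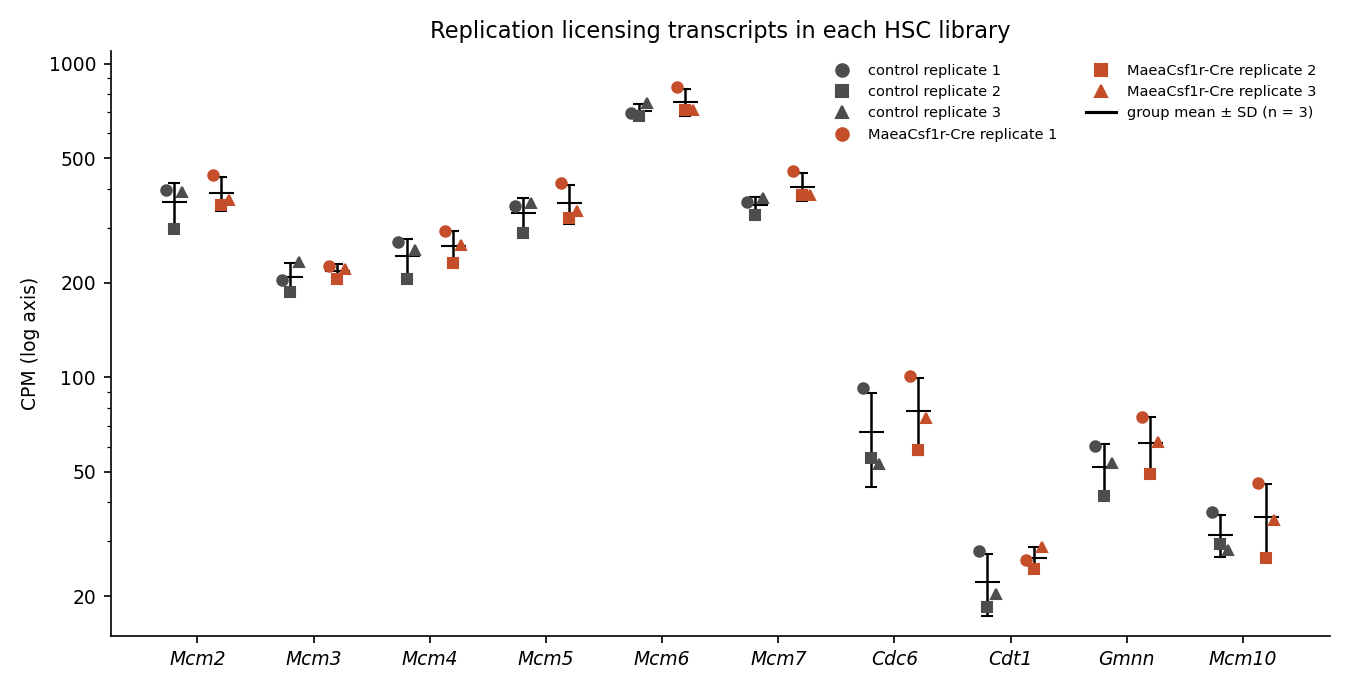
CPM of the 10 members in each HSC library on a log axis, grey for control and orange for MaeaCsf1r-Cre, with circles, squares and triangles for replicates 1, 2 and 3 and black bars for the group mean ± SD (n = 3). The 6 ring subunits lie between 187 and 842 CPM and the other 4 members between 18.6 and 101 CPM, and Mcm7 is the member whose groups do not overlap.

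Libraries stood in much the same order for most members. MaeaCsf1r-Cre replicate 1, the deepest library, was the highest for 8 of the 10 members, and control replicate 2 was the lowest for 8 of 10, all 6 ring subunits included. These libraries also held the extremes of the summed HSC markers, in the opposite sense, with 680 CPM in MaeaCsf1r-Cre replicate 1 and 1557 CPM in control replicate 2. The part of depth or of HSC markers in the members' values was not tested. Without control replicate 2, 7 of the 10 members had a higher mean in MaeaCsf1r-Cre libraries and their median log2 fold change was 0.08. Without MaeaCsf1r-Cre replicate 1, 8 did and the median was 0.03.

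Libraries with the same replicate number deviated together across genes, so each member was also read within the same-numbered pairs. In pair 1, 9 of 10 members were higher in the MaeaCsf1r-Cre library, all but Cdt1, with a median log2 difference of 0.20. In pair 2, 9 of 10 were higher, all but Mcm10, with a median of 0.16. Pair 3 divided the group. Of the ring subunits only Mcm4 and Mcm7 were higher there, by 0.05 and 0.04, and the median of the 6 was -0.07, whereas Cdc6 (0.48), Cdt1 (0.48), Gmnn (0.21) and Mcm10 (0.31) were all higher, with a median of 0.39. Over all genes tested the median log2 differences of pairs 1, 2 and 3 were -0.03, -0.14 and 0.01. The shares of all genes that were higher in these pairs were 46.9, 31.8 and 51.4%. Mcm4, Mcm7, Cdc6 and Gmnn, 4 of 10 members, were higher in all 3 pairs, where 13.2% of all genes were, and after quantile normalization Mcm10 joined them.

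**Figure D3:**
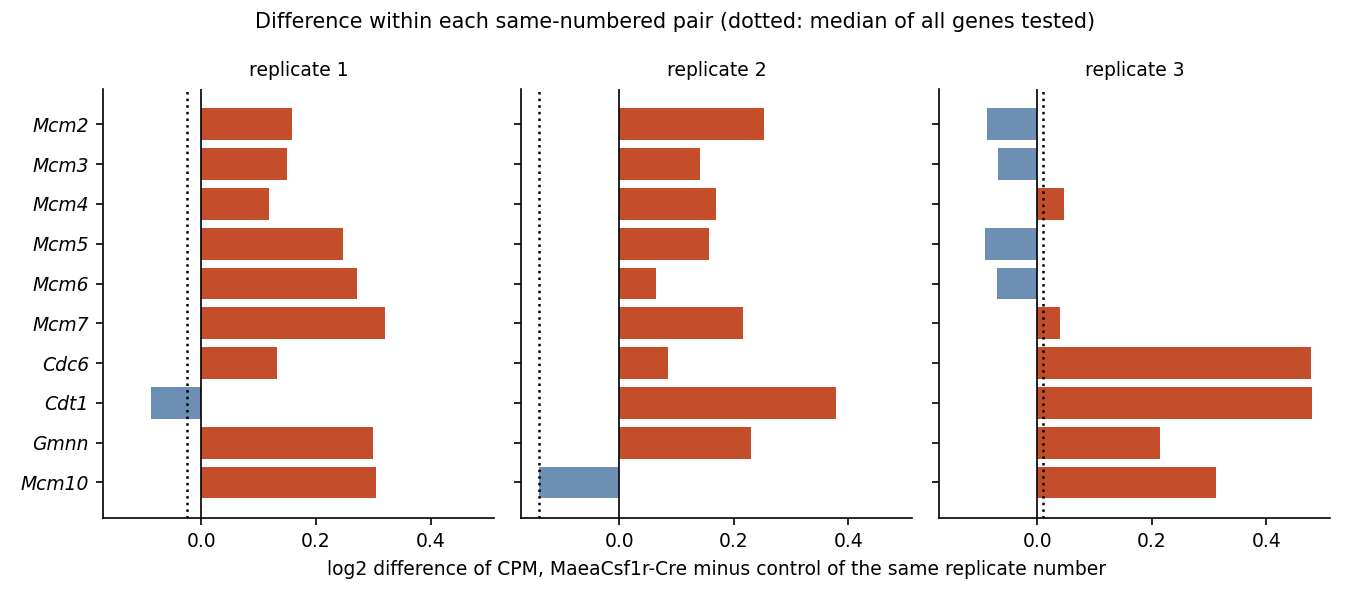
Log2 difference of CPM + 1, MaeaCsf1r-Cre minus control, for each member within the libraries numbered 1, 2 and 3, with orange bars above 0 and blue bars below, and a dotted line at the median of all genes tested. In pair 3 the ring subunits lie between -0.09 and 0.05 and the other 4 members between 0.21 and 0.48.

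Levels were compared between genes per kilobase of the longest annotated transcript. In control libraries Mcm6 stood at 163 ± 8.21, Mcm7 at 120 ± 7.63, Mcm2 at 103 ± 15.9, Mcm5 at 98.5 ± 11.5, Mcm4 at 67.8 ± 9.38 and Mcm3 at 60.7 ± 6.71 CPM per kilobase (SD, n = 3). Within a library Mcm6 was above Mcm7 and Mcm4 above Mcm3 in all 6 libraries, and Mcm2 was above Mcm5 in 5 of 6. Over the control libraries the ranges of Mcm7 and Mcm2, of Mcm2 and Mcm5, and of Mcm4 and Mcm3 overlapped. Gmnn, the shortest transcript of the group, followed at 46.0 ± 8.33 CPM per kilobase, near the 90.1th percentile of all genes with a length. Cdc6 at 13.9 ± 4.58, Cdt1 at 8.27 ± 1.84 and Mcm10 at 6.48 ± 0.997 CPM per kilobase closed the order, and the ranges of Cdt1 and Mcm10 overlapped. Thus Mcm6 lay at the 97.8th and Mcm10 at the 47.6th percentile of tested genes. The order within the ring depends on the length taken. Per kilobase of all annotated exons joined, Mcm6 stayed highest with 31.0% of the sum over the ring in control libraries, and Mcm2 went from 16.8 to 10.5% of that sum, the lowest share.

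**Figure D4:**
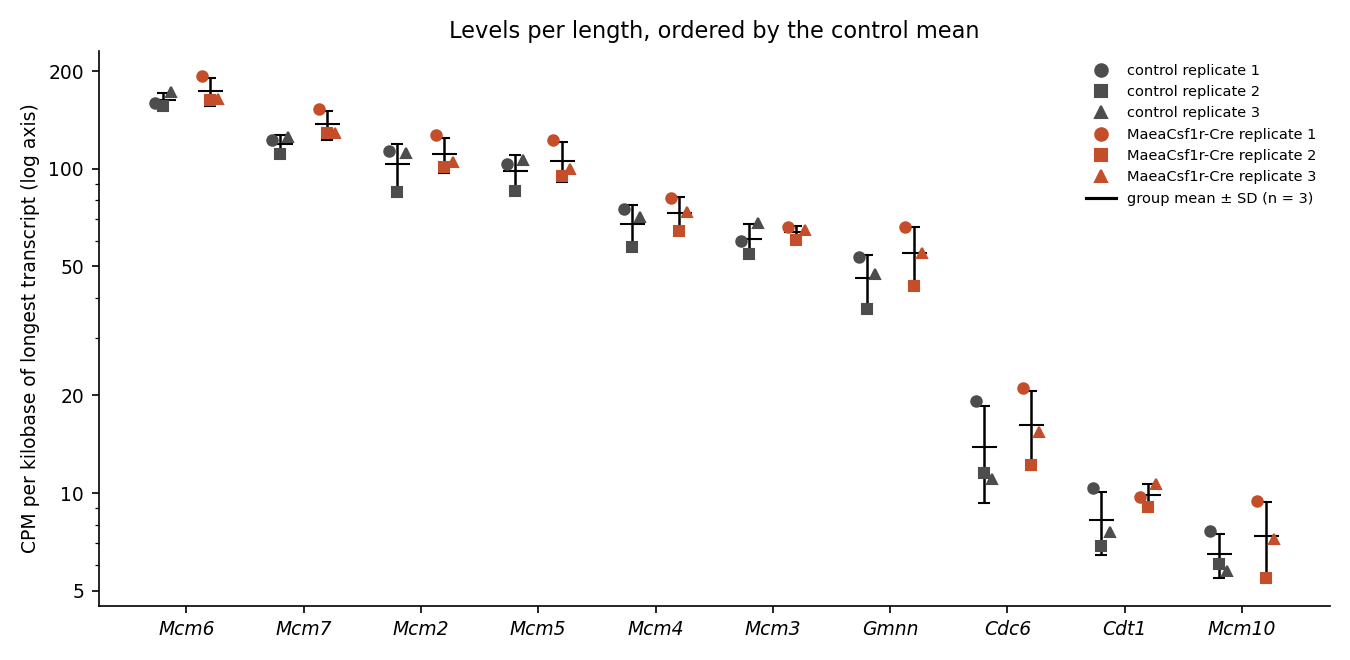
CPM per kilobase of the longest transcript on a log axis for the 10 members, ordered by the control mean, with points for the 6 libraries and black bars for the group mean ± SD (n = 3). Mcm6 leads at 163 CPM per kilobase in control and Mcm10 closes the order at 6.48.

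Summed over the ring, levels were 635, 550 and 655 CPM per kilobase in control and 744, 613 and 636 CPM per kilobase in MaeaCsf1r-Cre libraries. The groups overlapped in this sum. The make-up of the sum moved little between groups. Mcm6 took 26.6 ± 1.64% in control and 26.1 ± 0.45% in MaeaCsf1r-Cre libraries, Mcm2 16.8 ± 1.23% and 16.7 ± 0.30%, Mcm5 16.1 ± 0.44% and 15.9 ± 0.54%, Mcm4 11.0 ± 0.73% and 11.0 ± 0.53%, and Mcm3 9.90 ± 0.48% and 9.63 ± 0.65% (SD, n = 3). Mcm7 was the exception that its values in CPM already showed, with 19.3, 20.2 and 19.2% in control and 20.6, 21.0 and 20.3% in MaeaCsf1r-Cre libraries.

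The genes closest to the ring in pattern were found by the root mean square difference, over the 6 libraries, between a gene's centred log2(CPM + 1) and the mean centred profile of Mcm2 to Mcm7. Pus1, a pseudouridine synthase, was closest at 0.018, followed by Ndufa11 (0.022), a subunit of respiratory complex I, Gm14639 (0.023), Gm7436 (0.026) and Ercc8 (0.027), a factor of transcription-coupled repair. Pus1 stood at 51.9, 44.3 and 53.5 CPM in control and 62.1, 50.9 and 52.2 CPM in MaeaCsf1r-Cre libraries. Gm14639, at 1.31 to 2.06 CPM over the 6 libraries, and Gm7436, at 0.66 to 1.23 CPM, lay near the filter. At such levels log2(CPM + 1) understates differences, so their small distances say less. The ring subunits themselves were at 0.035 to 0.070 from their mean, and Gmnn (0.15), Cdt1 (0.19), Mcm10 (0.20) and Cdc6 (0.29) were farther from it. The median over other tested genes was 0.25 and their 1st percentile 0.061, which Mcm3 (0.070) and Mcm6 (0.062) exceeded. Each ring subunit is itself part of the mean it was compared with.

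Upstream of loading, 4 of the 6 subunits of the origin recognition complex (Orc1 to Orc6), which marks origins, had a higher mean in MaeaCsf1r-Cre libraries and none was called, with a median log2 fold change of 0.08. Orc2 stood at 70.4 ± 16.9 CPM in control and 81.7 ± 19.95 CPM in MaeaCsf1r-Cre libraries (SD, n = 3 each), and Orc6 at 50.4 ± 10.9 and 55.9 ± 10.4 CPM. Downstream, 12 of 13 genes of helicase assembly and origin firing had a higher mean, none was called, and their median was 0.14. Cdc45, which rides on the active helicase, stood at 48.7, 41.2 and 51.4 CPM in control and 66.9, 46.8 and 56.9 CPM in MaeaCsf1r-Cre libraries (log2 fold change 0.26, SE 0.17). Donson, a factor of helicase assembly, had the largest value of that list, 0.38 (SE 0.25). The groups overlapped for both genes.

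Relatives of the members did not share the sign of their fold changes. Mcm8 and Mcm9, a helicase pair of DNA repair, and Mcmbp, which binds ring subunits, had a median log2 fold change of -0.06, and none was called. The median of all genes tested was also -0.06, and the standard errors of these 3 genes ran from 0.14 to 0.22. Mcmbp, at 86.6 ± 4.78 CPM in control and 83.3 ± 11.95 CPM in MaeaCsf1r-Cre libraries, and Mcm9, at 20.1 ± 3.02 and 19.2 ± 1.18 CPM, had overlapping groups. Mcmdc2 did not pass the filter, at 0.51 to 1.26 CPM, and the geminin relatives Gmnc and Mcidas were listed at 0 in all libraries.

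Of 9 genes for the turnover of CDT1 and the kinase of S phase, 4 had a higher and 5 a lower mean, none was called, and the median was -0.02. Skp2, the F-box protein of a ligase that marks CDT1 for degradation, stood at 32.9, 31.2 and 30.5 CPM in control and 31.5, 21.5 and 24.7 CPM in MaeaCsf1r-Cre libraries, a log2 fold change of -0.29 (SE 0.17). Cul4b, a scaffold of the ligase that degrades CDT1 in S phase, had a log2 fold change of -0.16 (SE 0.13), and its groups did not overlap. Both were lower in every same-numbered pair, and neither passed the test.

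At the fork, 10 of 12 polymerase and primase genes and 12 of 15 genes of the sliding clamp, its loader and Okazaki fragment processing had a higher mean, with medians of 0.09 and 0.16 and none called. Pola2, a subunit of the primase-polymerase complex, stood at 68.1, 61.1 and 72.3 CPM in control and 92.6, 77.2 and 81.5 CPM in MaeaCsf1r-Cre libraries, a log2 fold change of 0.31 (SE 0.13, limma adjusted p = 0.967). Pold2, a subunit of the lagging strand polymerase, stood at 105, 96.2 and 112 CPM against 145, 115 and 129 CPM, a log2 fold change of 0.30 (SE 0.13). Lig1, which seals Okazaki fragments, stood at 111, 99.7 and 120.4 CPM against 143, 122 and 136 CPM (log2 fold change 0.27). In these 3 genes the groups did not overlap, as in Mcm7. Rfc5, a clamp loader subunit, had a log2 fold change of 0.23 (SE 0.13).

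Among 13 E2F and pocket protein genes 8 had a higher and 5 a lower mean, the median was 0.08 and none was called. Rbl2, the pocket protein p130 of quiescent cells, stood at 62.8, 79.4 and 62.4 CPM in control and 47.5, 46.8 and 61.7 CPM in MaeaCsf1r-Cre libraries, lower without overlap, with a log2 fold change of -0.39 (SE 0.16, limma adjusted p = 0.967). E2f8, a repressor that is itself an E2F target, had a log2 fold change of 0.28 (SE 0.20). All 15 mitosis markers had a higher mean, none was called, and their median was 0.17. Mki67, the gene of the proliferation antigen Ki-67, stood at 120.4, 125 and 149 CPM in control and 175, 141 and 177 CPM in MaeaCsf1r-Cre libraries, a log2 fold change of 0.32 (SE 0.14). Aurka, a kinase of the mitotic spindle, had a log2 fold change of 0.25 (SE 0.16). In pair 2, 4 of 15 mitosis markers and all 6 ring subunits were higher, where 31.8% of all genes tested were. In pair 3, all 15 mitosis markers and 2 of the 6 ring subunits were higher, where 51.4% of all genes tested were.

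Over the 8 lists of replication and E2F genes without the members or the mitosis markers, 71 of 74 genes were tested, 50 of them (70.4%) had a higher mean, their median log2 fold change was 0.11, and 0 were called by limma, while 3 had an unadjusted p under 0.05, as 3.99% of all genes tested did. Of these 71 genes 5 were higher and 2 lower without overlap, where 2.49% of all genes were higher and 6.06% lower without overlap.

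**Figure D5:**
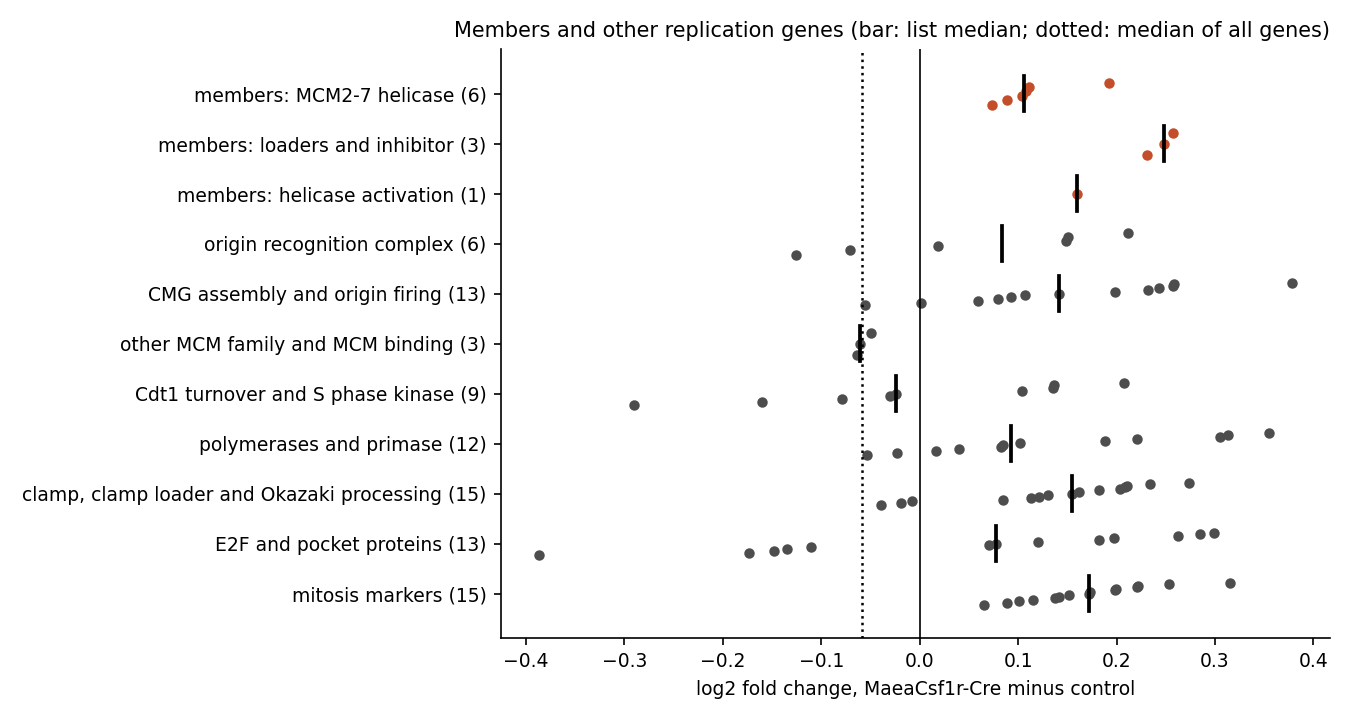
Log2 fold changes, MaeaCsf1r-Cre minus control, of the members (orange) and of the other lists (grey), a point per gene, with the number of genes in parentheses, a black bar at each list's median and a dotted line at the median of all genes tested, -0.06. Points of the members lie between 0.07 and 0.26, and none of the genes shown passed the test.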

How the data were processed

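RNA from sorted HSCs of 3 control and 3 MaeaCsf1r-Cre replicates was sequenced (libraries by SMART-Seq v4 and Nextera XT, single-end reads on an Illumina NextSeq). Per the labels and the study's methods, the authors trimmed reads with Trim Galore, aligned them to mm10 with STAR 2.5.3a and quantified and normalised them to an Ensembl annotation in Partek Flow. What was deposited is a CPM per gene symbol and library, each with 1e-04 added, and every column was tied to its sample by name (0 columns were left over).

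Between 77.0 and 78.6% of low values lay on whole reads (tolerance 0.05 read), so the values were not turned back into counts and tests for counts were left out. In these libraries 3 reads are worth 0.0492 to 0.0910 CPM, a limit set by counting error alone. Genes at 1 CPM or more in 3 or more libraries entered a linear model of log2(CPM + 1) in limma 3.58.1 (R 4.3.3), with a mean-variance trend and no block. Two-sided p-values were adjusted by Benjamini-Hochberg across all 12955 genes and read against 0.05. A fold change on this scale understates that of low genes. The script was tested on simulated data. Same-numbered libraries deviated together across genes (Pearson's r of 0.627, 0.523 and 0.397, against -0.459 to -0.0538 for other pairs), so the replicate number was taken to pair them and a fit with the replicate number as a block was an alternative. The labels do not state that the numbers pair libraries. Other alternatives were a filter at 10 CPM, no filter, a pseudocount of 0.1, rescaling by median ratios, quantile normalization, no trend, correction for transcript length, each library left out, and the length of joined exons.

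Transcript lengths, neighbours and gene coordinates came from GENCODE vM21 on GRCm38, which is later than the annotation the authors used, and promoter windows from RefSeq. Genes named were the 10 members, Maea, Mki67, up to 2 genes with the smallest p of each pathway list, and the 5 genes nearest in pattern to Mcm2 to Mcm7. Values of other genes, such as cell type markers, overlapping neighbours and the gene called, are given where a result touches on them. The members and lists were chosen with earlier results of these data known, so no list is independent evidence.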

Additional observations from a re-analysis of the deposited data

How the results depend on the processing

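No member was called under any of the 15 alternatives, and the smallest limma adjusted p of a member was 0.228, with length correction and the replicate block. The replicate block left the fold changes as they were and gave 1 gene called of 12955 and 0 members, with a smallest member adjusted p of 0.326 for Gmnn (95% interval of its log2 fold change 0.02 to 0.47, unadjusted p 0.0355, where 13.9% of all genes were under 0.05 in that limma fit), and it changed no other call. For the ratio of Cdt1 to Gmnn the pairing gave p = 1 in an exact sign permutation, whose smallest p is 0.25. Genes called over the whole table went from 1 to 10 without a filter, to 0 with a filter at 10 CPM, and to 12 with length correction and the replicate block, and leaving out each library gave 0 to 3, with 0 without control replicate 2 or 3 and 3 without MaeaCsf1r-Cre replicate 3.

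All 10 members kept a higher mean under the 9 alternatives that used all libraries. The median log2 fold change of the members was 0.18 after rescaling by median ratios, 0.15 after quantile normalization and 0.23 with length correction, where that of all genes was -0.01, 0.02 and 0.03. Leaving out each library gave medians of 0.03 to 0.22. Of 150 member values under alternatives 5 changed sign, each near 0, and the leave-one-out ranges of those genes were -0.0268 to 0.18 for Mcm2, -0.000199 to 0.16 for Mcm3, -0.00583 to 0.20 for Mcm4, -0.00741 to 0.18 for Mcm5 and -0.0324 to 0.35 for Mcm10. The difference in the Cdt1 to Gmnn log2 ratio ran from -0.0838 to 0.17 when each library was left out, so its sign was not settled. The cause of these shifts was not tested. With 3 libraries a group, the 95% intervals of the members were wide. They ran from -0.21 to 0.35 for Mcm3, which had the smallest standard error, and from -0.38 to 0.84 for Cdc6, which had the largest. For each member, a difference anywhere within its own interval remains possible.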
